A study of Mus musculus with 9 samples.

Results

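Ms4a4b, Ms4a4c, Ms4a6b, Ms4a6c and Ms4a6d are 5 mouse genes of the Ms4a family, whose products are small membrane proteins of lymphocytes and myeloid cells. They were chosen by their symbols, with earlier results of these arrays known, Ms4a6b among them having been seen to be lower in one mutant. Their differences from wild type are therefore given as descriptions of these arrays. They are 5 of the 20 Ms4a genes with a probe set of their own, and of 22180 genes with a probe set of their own in all. Each of the 5 had 1 probe set, so that no choice of the brightest was needed, and 0 probe sets listed one of them together with another gene.

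The arrays measured RNA from splenic natural killer (NK) cells of female C57BL/6N mice. Tyk2-/- mice lack the kinase Tyk2, Tyk2K923E mice carry a kinase-inactive Tyk2, and the third genotype was wild type (WT). NK cells were enriched with magnetic beads against DX5, pooled from 3 to 4 mice for each genotype and experiment, and grown for 7 days with 5000 U/ml of recombinant human interleukin-2, with splitting on days 4 and 6. All 9 cultures had this interleukin-2. Each of 3 independent experiments gave 1 array of each genotype, so n = 3 pools for each genotype, and the arrays were paired by experiment.

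Tyk2 is a Janus kinase bound to the receptors for type I interferon and interleukin-12, among others, where it helps to phosphorylate STAT transcription factors. MS4A proteins cross the membrane several times, and several act beside other receptors. Ms4a1 encodes CD20 of B cells and Ms4a2 encodes the beta chain of the high-affinity IgE receptor of mast cells. In the mouse, Ms4a4b is found in T cells and NK cells, where its protein has been described as a modulator of T-cell activation and proliferation. Ms4a6b protein is likewise found in T cells, whereas Ms4a6c and Ms4a6d are known from monocytes and macrophages. Ms4a4c is closely related to Ms4a4b.

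The family lies in one cluster on chromosome 19, where RefSeq places 21 Ms4a genes, and the 5 genes lie close together in its order: among the family's genes, Ms4a4c, Ms4a4b, Ms4a6c, Ms4a6b, Ms4a4d and Ms4a6d follow one another. Because they lie side by side and those detected had like patterns over the arrays, their promoter windows are shown. RefSeq's promoter table (GRCm38.p6) held a window for 4 of the 5 genes, each of 300 bases, from 250 bases before the start of the gene to 50 bases from the start on. All 4 are on the plus strand of chromosome 19: Ms4a4b at chr19:11443308-11443607, Ms4a4c at chr19:11407411-11407710, Ms4a6b at chr19:11518309-11518608 and Ms4a6c at chr19:11469118-11469417. Capitals mark the letters GAAANNGAA, called ISRE-like here after the interferon-stimulated response element (ISRE), found by a search of both strands. A full ISRE was not searched for.
Ms4a4b: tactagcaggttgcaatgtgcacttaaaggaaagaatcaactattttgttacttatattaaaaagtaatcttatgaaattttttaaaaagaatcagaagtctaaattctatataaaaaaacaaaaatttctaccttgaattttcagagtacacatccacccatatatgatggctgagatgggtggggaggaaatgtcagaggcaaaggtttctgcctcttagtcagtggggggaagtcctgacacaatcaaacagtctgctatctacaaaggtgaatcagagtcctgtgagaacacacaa
Ms4a4c: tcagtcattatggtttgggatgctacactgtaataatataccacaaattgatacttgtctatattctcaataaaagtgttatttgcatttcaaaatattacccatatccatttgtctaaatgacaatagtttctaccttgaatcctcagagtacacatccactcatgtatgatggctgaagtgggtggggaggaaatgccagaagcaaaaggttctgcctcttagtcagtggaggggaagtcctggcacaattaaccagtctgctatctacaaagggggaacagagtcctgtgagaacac
Ms4a6b: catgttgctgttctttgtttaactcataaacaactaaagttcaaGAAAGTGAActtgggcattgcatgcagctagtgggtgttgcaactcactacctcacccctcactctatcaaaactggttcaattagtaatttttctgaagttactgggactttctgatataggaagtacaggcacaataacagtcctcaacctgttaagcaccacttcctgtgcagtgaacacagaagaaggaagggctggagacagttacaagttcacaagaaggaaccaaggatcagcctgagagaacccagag
Ms4a6c: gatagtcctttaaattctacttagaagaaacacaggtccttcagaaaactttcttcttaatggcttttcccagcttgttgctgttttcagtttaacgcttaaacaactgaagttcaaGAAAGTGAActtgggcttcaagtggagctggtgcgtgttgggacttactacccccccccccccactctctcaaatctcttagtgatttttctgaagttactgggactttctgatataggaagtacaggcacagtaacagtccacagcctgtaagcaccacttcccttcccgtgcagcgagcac

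The windows fall into 2 like pairs. Ms4a4b and Ms4a4c were identical at 73.8% of the columns of their alignment, with a longest shared run of 20 bases. Ms4a6b and Ms4a6c were identical at 52.3% of columns but shared a run of 48 bases, which began at -118 from the start in Ms4a6b and at -49 in Ms4a6c. The other pairs had 48.3% to 53.6% identical columns and shared runs of 7 to 9 bases. The ISRE-like letters read GAAAGTGAA in both Ms4a6b, from -206 to -198, and Ms4a6c, from -133 to -125. They were not in the windows of Ms4a4b and Ms4a4c. Of all 32851 windows of this length in the table, 8.56% held these letters, against 50.9% of the 53 windows of a list of type I interferon-stimulated genes. Of 19 windows of Ms4a genes 5 held them (26.3%), those of Ms4a18 and Ms4a7 besides Ms4a6b and Ms4a6c. The letters TTCNNNGAA, the core of the site bound by STAT dimers, were in 0 of the 4 windows and in 8.3% of all windows. These matches describe letters only and say nothing of which factor binds there.

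Values are log2 probe-set signals as deposited, and the median over all probe sets of an array lay between 5.42 and 5.48. A probe set's level depends on its probes, so levels are compared between genotypes and not between genes. Ms4a4b and Ms4a6b lay at or above the array median on 9 of 9 arrays. Ms4a4c did so on 3 arrays, 2 of WT and 1 of Tyk2-/- cells. Ms4a6c and Ms4a6d did so on 0 of 9 arrays and were left out of the fits across genes, which required 3 arrays at or above the median. Ms4a4c thus passed this filter mainly through its WT arrays, and its lower values in the mutants are partly set by that.

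Ms4a4b, the T-cell and NK-cell member, was lower in both mutants than in WT cells. Its log2 signal in experiments 1, 2 and 3 was 7.61, 7.39 and 7.68 in Tyk2-/- cells, 7.11, 7.65 and 7.20 in Tyk2K923E cells, and 7.87, 8.25 and 8.08 in WT cells. All 6 mutant arrays lay below all 3 WT arrays, while the mutants overlapped each other. For each mutant alone, such a separation held for 2.74% of all tested genes in Tyk2-/- and 3.8% in Tyk2K923E cells. The share for both mutants together was not taken. In experiments 1 and 3 the Tyk2K923E array was lowest, and in experiment 2 the Tyk2-/- array was. The means were 7.56 ± 0.15 in Tyk2-/-, 7.32 ± 0.29 in Tyk2K923E and 8.07 ± 0.19 in WT cells (SD, n = 3 each). In these enriched cultures, fewer cells expressing a gene and less RNA per cell cannot be told apart.

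Ms4a6b, which lies near Ms4a4b in the cluster, had the same order. Its log2 signal was 7.05, 6.79 and 7.09 in Tyk2-/- cells, 6.78, 6.99 and 6.67 in Tyk2K923E cells, and 7.55, 7.58 and 7.39 in WT cells. The mutant arrays again lay below every WT array and overlapped each other, and experiment 2 again had the lowest array in Tyk2-/- cells. The means were 6.98 ± 0.17 in Tyk2-/-, 6.81 ± 0.16 in Tyk2K923E and 7.51 ± 0.10 in WT cells (SD, n = 3 each).

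Ms4a4c, the close relative of Ms4a4b, lay near the array median. Its log2 signal was 5.29, 5.24 and 5.48 in Tyk2-/- cells, 4.25, 5.06 and 5.22 in Tyk2K923E cells, and 5.29, 5.98 and 5.88 in WT cells. Tyk2K923E arrays lay below all the others, and the Tyk2-/- array of experiment 1 had the same value as the WT array of that experiment. The means were 5.34 ± 0.12 in Tyk2-/-, 4.84 ± 0.52 in Tyk2K923E and 5.72 ± 0.38 in WT cells (SD, n = 3 each). The lowest Tyk2K923E value, 4.25, came from experiment 1, whose arrays stood apart from the others over all genes.

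Ms4a6c and Ms4a6d, the monocyte and macrophage members, stayed below the median of every array. Ms4a6c had 4.79, 4.79 and 4.43 in Tyk2-/- cells, 4.62, 5.16 and 4.62 in Tyk2K923E cells, and 5.04, 4.79 and 5.14 in WT cells. Ms4a6d had 3.93, 3.54 and 3.69 in Tyk2-/- cells, 3.87, 3.99 and 3.67 in Tyk2K923E cells, and 4.14, 4.23 and 3.83 in WT cells. For both genes the genotypes overlapped, and at such signals a difference may not be detectable.

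**Figure D1:**
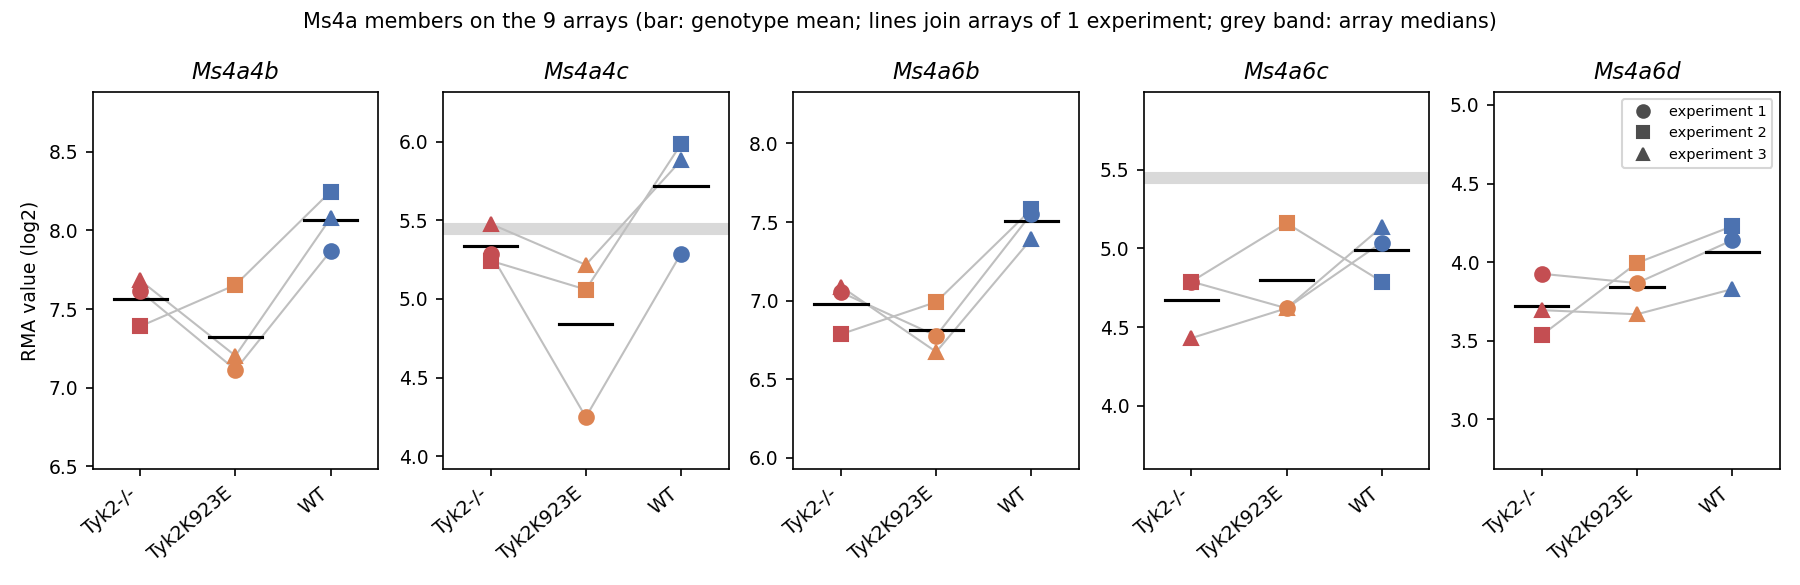
Log2 probe-set signal (y axis) of each of the 5 genes by genotype, 1 point for each array, with a bar at the mean over 3 arrays. Lines join the arrays of 1 experiment, and a grey band marks the array medians. In Ms4a4b and Ms4a6b the 6 mutant arrays lie below the 3 WT arrays, and Ms4a6c and Ms4a6d overlap between genotypes. The share of all tested genes with both mutants below WT was not taken.

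The first question of the design was how NK cells without Tyk2 differ from WT cells. In Tyk2-/- cells Ms4a4b was lower by 0.26, 0.86 and 0.40 on the log2 scale in experiments 1, 2 and 3, and its mean difference was -0.50 (SE 0.14, 95% interval -0.83 to -0.18). This corresponds to a WT level 1.42 times the Tyk2-/- level. Ms4a6b differed by -0.50, -0.79 and -0.30, with a mean of -0.53 (SE 0.11, interval -0.79 to -0.27), a WT level 1.45 times the Tyk2-/- level. Ms4a4c differed by 0.00, -0.74 and -0.40, with a mean of -0.38 (SE 0.16, interval -0.75 to -0.02). The intervals are not adjusted for the number of genes.

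In the limma fit over all 12579 tested genes with the experiment as a block, 0 of the 3 tested members passed an adjusted p of 0.05, while 11 genes did (0.0874%). The adjusted p was 0.379 for Ms4a4b, 0.251 for Ms4a6b and 0.525 for Ms4a4c. At an unadjusted limma p under 0.05 stood 3 of the 3, beside 1142 of all genes. The unpaired limma fit also called 0 of the 3, against 4 of all genes (0.0318%), and put 2 of the 3 under an unadjusted p of 0.05, beside 262 of all genes. All Tyk2-/- arrays lay under all WT arrays for Ms4a4b and Ms4a6b, as for 345 of all tested genes (2.74%). Counting the gene itself, 35 tested genes (0.278%) had a difference as low as that of Ms4a4b, and 31 (0.246%) one as low as that of Ms4a6b. The median over all tested genes was 0.00. Without the Tyk2-/- array of experiment 2, the differences were -0.29 for Ms4a4b, -0.38 for Ms4a6b and -0.21 for Ms4a4c. Without experiment 1 they were -0.63, -0.55 and -0.57 for the same genes.

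Ms4a6c and Ms4a6d differed from WT by -0.32 and -0.35 in Tyk2-/- cells. Ms4a6d was lower in each experiment, by 0.21, 0.69 and 0.13, and Ms4a6c had equal values in experiment 2. With the filter dropped, so that all 22180 genes were fitted, limma gave adjusted p-values of 0.820 for Ms4a6c and 0.795 for Ms4a6d.

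The second question was how cells with a kinase-inactive Tyk2 differ from WT cells. In Tyk2K923E cells Ms4a4b differed by -0.76, -0.59 and -0.88 in experiments 1, 2 and 3, with a mean of -0.74 (SE 0.14, interval -1.07 to -0.42) and a WT level 1.67 times the Tyk2K923E level. Ms4a6b differed by -0.78, -0.59 and -0.72, with a mean of -0.69 (SE 0.11, interval -0.95 to -0.44) and a WT level 1.62 times the Tyk2K923E level. Ms4a4c differed by -1.04, -0.92 and -0.66, with a mean of -0.88 (SE 0.16, interval -1.24 to -0.51) and a WT level 1.84 times the Tyk2K923E level. Each experiment thus gave a lower value in Tyk2K923E cells for all 3 genes.

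Here too 0 of the 3 tested members passed the adjusted threshold of the paired limma fit, which 11 of all genes did (0.0874%). The adjusted p was 0.0755 for Ms4a6b, 0.103 for Ms4a4c and 0.119 for Ms4a4b. At an unadjusted limma p under 0.05 stood 3 of the 3, beside 1258 of all genes. The unpaired limma fit called 0 of the 3 and 1 of all genes (0.00795%), and put 3 of the 3 under an unadjusted p of 0.05, beside 529 of all genes. Ms4a4b and Ms4a6b had every Tyk2K923E array under every WT array, as had 478 of all tested genes (3.8%). The same held for Ms4a4c, but it reached the array median on 2 WT arrays and 0 Tyk2K923E arrays. Its place among the tested genes and its low values here are therefore partly set by the filter. Counting the gene itself, 11 tested genes (0.0874%) were as low as Ms4a4c, 15 (0.119%) as low as Ms4a4b and 19 (0.151%) as low as Ms4a6b. Leaving out single arrays or experiments gave an adjusted p in limma of 0.0223 to 0.584 for Ms4a4b. For Ms4a6b it was 0.0223 to 0.433. The lowest came without the Tyk2-/- array of experiment 2. That array is not part of this comparison but of the shared estimate of spread, and the differences stayed the same without it. The highest came without experiment 3 for Ms4a4b and without experiment 1 for Ms4a6b. Without experiment 1 the differences were -0.74 for Ms4a4b, -0.65 for Ms4a6b and -0.79 for Ms4a4c.

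Ms4a6c and Ms4a6d had mean differences of -0.19 and -0.22 in Tyk2K923E cells. Ms4a6c differed by -0.42, 0.37 and -0.52, so that the sign turned in experiment 2, and Ms4a6d differed by -0.27, -0.23 and -0.16. In the limma fit without the filter their adjusted p-values were 0.853 and 0.737. Both mutants were set against the same 3 WT arrays, so the 2 sets of differences share those values.

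**Figure D2:**
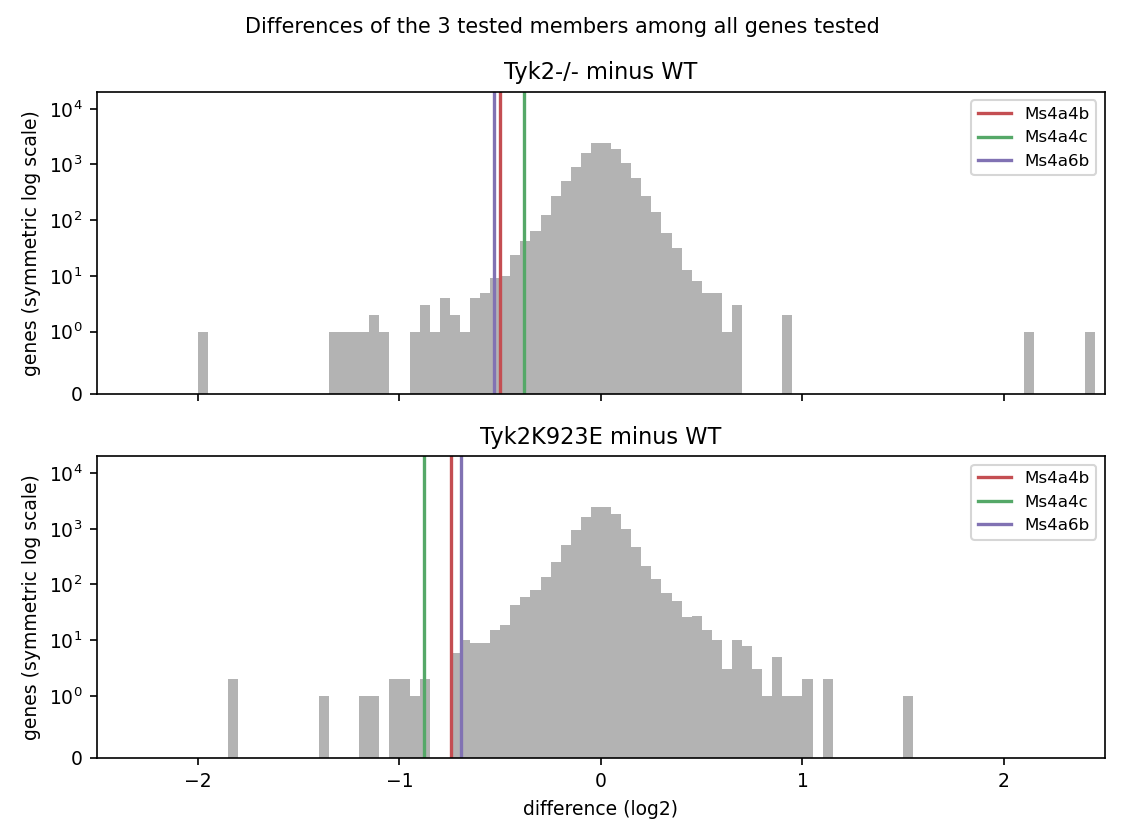
Histograms of the log2 difference from WT (x axis) over the 12579 tested genes, with the number of genes on a log y axis, and lines at Ms4a4b, Ms4a4c and Ms4a6b. The 3 genes lie in the lower tail in both mutants.

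The third comparison set the mutants against each other, to ask whether loss of the protein and loss of its kinase activity differ. Tyk2-/- minus Tyk2K923E was 0.24 for Ms4a4b (interval -0.09 to 0.56), 0.16 for Ms4a6b (interval -0.10 to 0.42) and 0.49 for Ms4a4c (interval 0.13 to 0.86). Ms4a4b and Ms4a6b were higher in Tyk2-/- cells in experiments 1 and 3 and lower in experiment 2. Ms4a4c was higher in Tyk2-/- cells by 1.04, 0.18 and 0.26, and its groups did not overlap, which held in that direction for 363 of all tested genes (2.89%). It reached the array median on 1 Tyk2-/- array and 0 Tyk2K923E arrays, so the filter bears on this difference too. The adjusted p in limma was 0.589 for Ms4a4b, 0.644 for Ms4a6b and 0.452 for Ms4a4c, and 0 of the 3 passed, against 3 of all genes in the paired fit (0.0238%) and 3 in the unpaired fit (0.0238%). At an unadjusted limma p under 0.05 stood 1 of the 3 in the paired fit, beside 1218 of all genes, and 0 in the unpaired fit, beside 303. Single arrays moved these values: with arrays or experiments left out in turn, the difference was 0.11 to 0.49 for Ms4a4b, 0.04 to 0.35 for Ms4a6b and 0.22 to 0.66 for Ms4a4c. The lowest came without experiment 1 for Ms4a4b and Ms4a4c and without experiment 3 for Ms4a6b. The intervals allow differences between the mutants of more than 0.40 for each of the 3 genes, so a like level is not shown.

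The other 15 Ms4a genes with a probe set gave no difference of that size. Their differences from WT lay between -0.28 and 0.14 in Tyk2-/- cells and between -0.27 and 0.21 in Tyk2K923E cells. Only Ms4a15 among them passed the filter, and it differed by -0.02 in Tyk2-/- cells (adjusted p = 0.946 in limma) and by -0.03 in Tyk2K923E cells (adjusted p = 0.938). Ms4a10 reached the array median on 1 array, and the remaining 13, among them Ms4a1, which encodes CD20, and Ms4a2, on none. At such signals a difference may not be detectable, so of the 15 only Ms4a15 can be set beside the tested members. Ms4a4d, which lies between Ms4a6b and Ms4a6d, was lower in each experiment, with mean differences of -0.23 in Tyk2-/- and -0.16 in Tyk2K923E cells. Ms4a5 was likewise lower in each experiment, by means of -0.20 and -0.27 in the same mutants. In both genes no mutant array overlapped WT, at signals below every array's median, and no share over untested genes was taken. For Ms4a4d the highest mutant array had 4.62 and the lowest WT array 4.63. For Ms4a5 the same value, 4.06, stood on 5 of 9 arrays, all of them mutant.

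**Figure D3:**
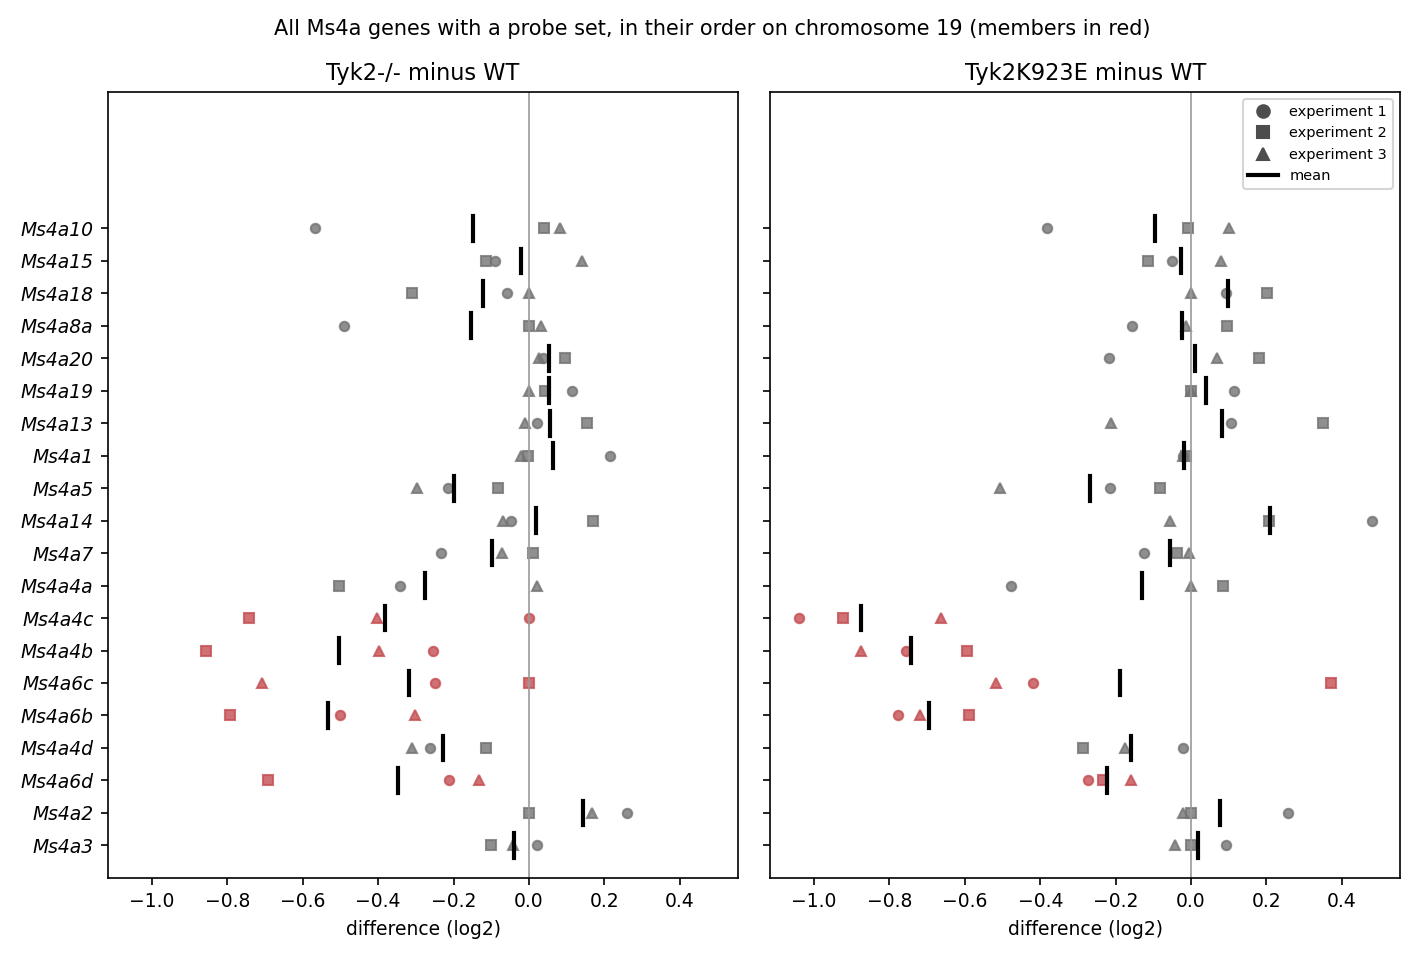
Log2 difference from WT (x axis) of the 20 Ms4a genes with a probe set, in their order on chromosome 19 (y axis), with 1 point for each experiment and a bar at the mean. Ms4a4c, Ms4a4b and Ms4a6b have means of -0.38 or lower in Tyk2-/- cells and of -0.69 or lower in Tyk2K923E cells, beyond those of the 15 genes in grey. Of those 15 only Ms4a15 passed the filter, and at the signals of the others a difference may not be detectable.

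Detected genes that flank the cluster were taken as neighbours, with 5 on each side of it: Cd6, Tmem132a, Tmem109, Prpf19 and Ccdc86 before it, and Mrpl16, Stx3, Patl1, Osbp and Pfpl after it. Their median difference was 0.06 in both mutants, and 3 of the 10 were lower in Tyk2-/- and 4 of the 10 in Tyk2K923E cells. In limma 0 of the 10 passed in either mutant. Pfpl had the greatest difference among them, 0.51 in Tyk2K923E cells (adjusted p = 0.198). Of 11 other symbols inside the cluster 1 was tested, AW112010, a long non-coding RNA between Ms4a18 and Ms4a8a. It differed by -0.42, -0.44 and -0.34 in Tyk2-/- cells (mean -0.40, adjusted p = 0.0679 in limma) and by -0.23, -0.24 and -0.21 in Tyk2K923E cells (mean -0.23, adjusted p = 0.196), and its arrays overlapped WT in both mutants.

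Of 56 listed type I interferon-stimulated genes, 40 were tested, and none of the 5 members was on the list. In Tyk2-/- cells 37 of the 40 were lower with a median of -0.31, while 48.1% of all tested genes were lower. The paired limma fit passed 3 of the 40, all lower: Ifi27 (-1.35), Rtp4 (-1.11) and Ifi214 (-1.24). In Tyk2K923E cells 38 of the 40 were lower with a median of -0.32, while 49.1% of all tested genes were lower. Here 5 passed, all lower: Ifi27 (-1.80), Rtp4 (-1.40), Ifi214 (-1.15), Mx1 (-0.96), which encodes an antiviral GTPase, and Lgals3bp (-0.63). Ifi214 reached the array median on the 3 WT arrays alone. Mx1 and Trim30d did so on 3 WT arrays, 1 Tyk2-/- array and 0 Tyk2K923E arrays. These genes passed the filter mainly through WT, and their lower values in the mutants are partly set by that. The counts of lower genes and the medians of the list include them and are partly set by the filter too. The unpaired fit called 1 of the 40, Ifi27, in each mutant. In Tyk2K923E cells the differences of Ms4a4b, Ms4a6b and Ms4a4c were -0.74, -0.69 and -0.88, beside the list's median of -0.32, and none of these members passed. Ms4a4c, like Mx1, reached the array median on 0 Tyk2K923E arrays.

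Markers of other cells were read beside the members, since Ms4a4b and Ms4a6b are also expressed in T cells. All 15 NK markers were at or above the median on 9 of 9 arrays. In Tyk2-/- cells 10 of the 15 were lower with a median of -0.20 and 0 passed; in Tyk2K923E cells 10 were lower with a median of -0.13 and 2 passed, Cd160 (-0.68) and Itga2 (-0.71, adjusted p = 0.0375 for each in paired limma and 0.155 for each in the unpaired fit, which called 0 of the 15). Itga2 encodes CD49b, the antigen bound by DX5. Of 12 tested T-cell markers, 11 were lower in Tyk2-/- cells (median -0.11) and 10 in Tyk2K923E cells (median -0.32), and 0 passed in either mutant. Of all tested genes, 48.1% were lower in Tyk2-/- and 49.1% in Tyk2K923E cells. The summed signal of the T-cell markers on the log2 scale was 12.9 to 13.3 in Tyk2-/-, 12.8 to 12.9 in Tyk2K923E and 12.9 to 13.4 in WT cells.

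Cd8a, a T-cell coreceptor, differed in Tyk2K923E cells by -1.19, -0.15 and -1.42 in experiments 1, 2 and 3 (adjusted p = 0.173 in limma). Cd8b1 differed there by -0.79, 0.00 and -0.91 (adjusted p = 0.259). Bcl11b, a transcription factor of T cells, and Lat, an adaptor of the T-cell receptor, had mean differences of -0.42 and -0.48 (adjusted p = 0.0521 and 0.0696). Over experiments 1, 2 and 3 Bcl11b differed by -0.43, -0.38 and -0.44, and Lat by -0.47, -0.41 and -0.55. In experiment 2 Ms4a4b and Ms4a6b differed by -0.59 each. That experiment gave the smallest difference of the 3 for all 6 of these genes in Tyk2K923E cells. The step was slight for Bcl11b and Lat and large for Cd8a and Cd8b1. In Tyk2-/- cells the same experiment gave the largest differences of Ms4a4b (-0.86), Ms4a6b (-0.79) and Lat (-0.21). It gave the smallest of Cd8a (-0.04), Cd8b1 (0.01) and Bcl11b (-0.04). Of the T-cell markers, Ctla4 and Icos were higher in Tyk2K923E cells, by means of 0.07 and 0.10. The part of T cells in the members' differences was not tested.

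Of the B-cell markers 10 of 11 were below the median on all 9 arrays, as were 9 of 17 for monocytes and macrophages, 6 of 9 for dendritic cells and 9 of 12 for neutrophils. Cd14, Cd68, Cd209a, Ly6g and Csf3r of these lists were at or above it on 9 of 9 arrays. Cd14 differed in Tyk2K923E cells by 0.53, 0.39 and 0.34 (mean 0.42, adjusted p = 0.102 in paired limma), while the other 3 tested monocyte and macrophage markers were lower there. The summed signal of the monocyte and macrophage markers was 9.77 to 9.94 in Tyk2-/-, 9.69 to 9.95 in Tyk2K923E and 9.71 to 10.1 in WT cells. In limma 0 genes of these lists passed in either mutant.

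Over the 9 arrays, with each experiment's mean taken out, Ms4a4b and Ms4a6b had a Pearson correlation of 0.977, Ms4a4b and Ms4a4c of 0.895, and Ms4a4c and Ms4a6b of 0.849. On the values as deposited these were 0.933, 0.841 and 0.670. The arrays share genotypes and experiments, so these are descriptions. Among all 12579 tested genes, Ms4a6b was the fourth most like Ms4a4b by this measure, after Ppm1h (0.995), Tpst2 (0.982) and Arhgap10 (0.979), and before 9930111J21Rik2 (0.974). Most like Ms4a4c were Eif4e3 (0.990), Sppl3 (0.982), A930006K02Rik (0.981), Calhm2 (0.978) and Klra6 (0.977), a Ly49 receptor gene of NK cells. Most like Ms4a6b were Cdc37 (0.983), Dgka (0.982), Ppm1h (0.979), Ms4a4b (0.977) and Arhgap25 (0.976). These orders depend on the removal of experiment means. On the values as deposited, Ppm1h had 0.388 with Ms4a4b and 0.622 with Ms4a6b, and Eif4e3 had 0.425 with Ms4a4c. Tpst2 kept 0.947 with Ms4a4b, and Cdc37 kept 0.978 with Ms4a6b. Cdc37 encodes a kinase co-chaperone and lies beside Tyk2 on chromosome 9, and Dgka encodes a diacylglycerol kinase.

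These genes had mostly smaller differences than the members. Klra6 differed by -0.28 in Tyk2-/- and by -0.74 in Tyk2K923E cells. 9930111J21Rik2 differed by -0.42 and -0.55 in the same mutants, Dgka by -0.30 and -0.42, and Cdc37 by -0.17 and -0.18. None of them passed in limma.

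**Figure D4:**
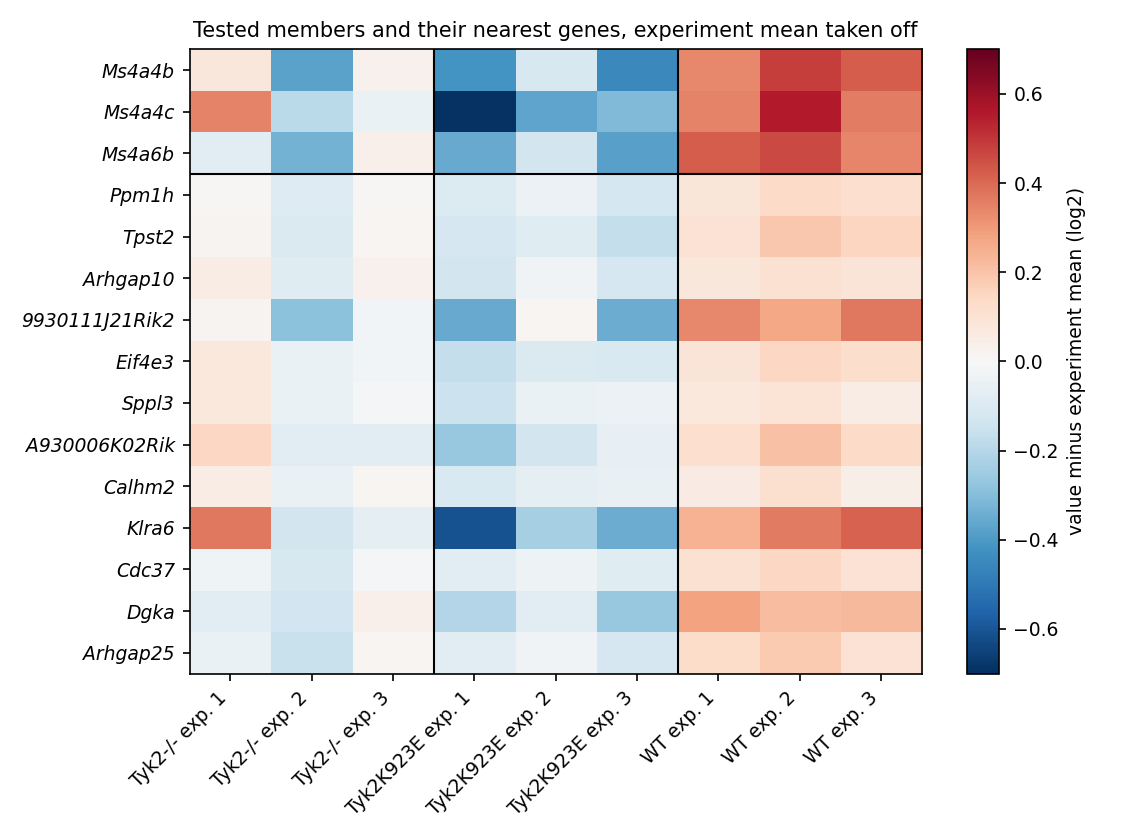
Log2 signal minus the mean of its experiment (colour, clipped at 0.7) for the 3 tested members and the 5 genes most like each (rows) on the 9 arrays (columns, by genotype). The members stand above the dividing line and the other genes below it. The WT columns are mostly high and the Tyk2K923E columns mostly low in both blocks of rows. The genes below the line were picked for their likeness to the members.

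In a principal component analysis of all genes, the leading component (61% of the variance) set the arrays of experiment 1 apart from the rest, in every genotype. Tyk2 itself had 9.55, 8.63 and 8.85 in Tyk2-/- cells, 8.63, 8.43 and 8.52 in Tyk2K923E cells, and 8.68, 8.56 and 8.63 in WT cells. It was thus not lower in Tyk2-/- cells (0.39, adjusted p = 0.488 in limma). The deleted part and the probes' positions are not given in the sources used here, so this level does not check the labels.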

How the data were processed

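Per the submitters' processing notes, the arrays were processed with RMA in Partek 6.6; per the labels' protocols, RNA was labelled with an Affymetrix kit. The deposited values are log2 signals of 41345 probe sets on 9 arrays, from 1.10 to 14.1, and were used without further normalization. The genome build of the array is not given in the sources used here. The platform annotation gave 1 symbol to 23521 probe sets, several to 1814 and listed none for 16010; probe sets with several were not used. Symbols were updated by Entrez ID, which matched RefSeq for 23328 of them.

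A gene was tested if a probe set lay at or above the array median on at least 3 of 9 arrays; the brightest by mean stood for the gene. limma 3.58.1 (R 4.3.3) was fitted to all 9 arrays and 12579 genes with the experiment as a block, with Benjamini-Hochberg adjustment over all genes and a threshold of 0.05; an unpaired fit and the other alternatives are in the closing section. The labels state that the experiments were independent, and the titles number them, so the arrays were paired by that number. Deviations from the genotype means correlated at 0.383 to 0.787 within experiments (9 pairs) and at -0.71 to 0.559 between them (18 pairs). These ranges overlap, and taking off genotype means over 3 arrays itself lowers the correlations between experiments. An exact permutation test of 3 against 3 cannot go below 0.1 and was not used. The number of arrays limits the precision; pools of mice hide the spread between animals.

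Named genes were the members, the other Ms4a genes, up to 4 genes of each list with the smallest p in each comparison, 5 measured neighbours on each side of the cluster, the 5 genes with the highest Pearson correlation to each tested member after removal of experiment means, and Tyk2. Ifi214 in Tyk2K923E cells and AW112010 were named in addition, after their values were seen. The members and all gene lists were chosen with earlier results of these data known. Promoter windows are RefSeq's; alignments used Biopython 1.88.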

Additional observations from a re-analysis of the deposited data

How the results depend on the processing

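Across 22 alternatives, the differences of Ms4a4b, Ms4a4c and Ms4a6b from WT were below 0 in each, from -0.65 to -0.20 in Tyk2-/- and from -0.99 to -0.63 in Tyk2K923E cells. No member was called in Tyk2-/- against WT or against Tyk2K923E under any of them. In Tyk2K923E against WT, 0 members were called with no replicate block (unpaired), as in the paired fit; 1 was called with a filter at the 70th percentile, which tests fewer genes (Ms4a6b, adjusted p = 0.0474 in limma), and 2 with array weights (Ms4a4c and Ms4a6b, adjusted p = 0.0433 each). Leaving out single arrays or experiments gave 0 to 2, the 2 without the Tyk2-/- array of experiment 2. The cause of these moves was not tested. Counts over all genes moved more. For Tyk2-/- against WT (11), they were 4 with no replicate block, 6 with only the 2 genotypes, 4 with no filter, 19 at the 70th percentile, 22 with an intensity trend, 26 with array weights and 3 to 11 with arrays or experiments left out. For Tyk2K923E against WT (11), they were 1, 2, 1, 29, 41 and 66 under the same 6 alternatives, 20 with median centring, 17 with quantile normalization, and 1 to 34 with arrays or experiments left out, each of which moved the count by over 1.5 times. For Tyk2-/- against Tyk2K923E (3), they were 2 to 6 with arrays or experiments left out. Ms4a6c and Ms4a6d, below every array's median, are limited by signal, and with 3 pools a genotype small differences cannot be told from the spread.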

Other observations

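Identical values on different arrays were frequent in the deposited table. At least 2 of the 9 arrays shared an exact value in 5190 of the 12579 tested genes (41.3%) and in 14 of the 20 Ms4a genes with a probe set. Ms4a19 had the same value on 7 of 9 arrays. Among the members, Ms4a4c shared a value on 2 arrays and Ms4a6c on 3, while Ms4a4b, Ms4a6b and Ms4a6d had 9 different values.

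Ctla4, an inhibitory receptor of activated T cells, had the smallest p of the T-cell markers in Tyk2-/- cells. It differed from WT by -0.57, -0.36 and -0.49 in Tyk2-/- cells of experiments 1, 2 and 3 (mean -0.47, adjusted p = 0.0679 in paired limma, 1 in the unpaired fit), and by 0.07, 0.03 and 0.10 in Tyk2K923E cells (mean 0.07, adjusted p = 0.800). Tyk2-/- minus Tyk2K923E was -0.54 (adjusted p = 0.102 in paired limma).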
